A study of Mus musculus with 11 samples.

Results

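The nuclear-encoded genes of oxidative phosphorylation were examined in single 8-cell mouse embryos with and without PRDM10, a zinc finger protein that binds DNA. Members were the protein-coding genes whose symbols mark a subunit or assembly factor of complexes I to V (symbols beginning with Nduf, Uqcr, Atp5 or Cox4 to Cox8, and Sdha to Sdhd). This gave 94 of the 54146 genes in each table, which carry 93 symbols because *Atp5o* has a second, readthrough record. Complex I had 44 members, complex II had 4, complex III had 8, complex IV had 20 and complex V had 18. A further 13 matching symbols were pseudogenes or non-coding genes and were left out.

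Each library was made from 1 C57BL/6 embryo collected at embryonic day 2.5 from natural matings of *Prdm10* heterozygotes. The 5 mutants were *Prdm10* Δ/Δ, with exon 5 deleted on both alleles. The 6 controls were *Prdm10* +/+ or Δ/+ and were not told apart. The Δ allele came from a targeted conditional allele recombined in mice with an ACTB-driven Cre, and embryos were sorted by detection of exon 5 in their own cDNA. Batch 1 held 3 controls and 2 mutants amplified with 16 PCR cycles, and batch 2 held 3 controls and 3 mutants amplified with 13 cycles.

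Oxidative phosphorylation takes place in the inner mitochondrial membrane. Complexes I and II pass electrons from NADH and succinate to coenzyme Q, complex III passes them to cytochrome c, complex IV passes them to oxygen, and complex V uses the resulting proton gradient to make ATP. Most subunits are encoded in the nucleus and a small core in the mitochondrial genome, and several complex IV subunits have alternative genes used in muscle, lung, testis or other tissues. In the early mouse embryo, mitochondria are inherited from the oocyte, and reliance on oxidative metabolism and glucose grows toward the blastocyst.

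Library totals ranged from 3534735 to 8265840 expected counts. Controls had 16.5 ± 4.62 TPM of *Prdm10* (SD, n = 6), and mutants 6.66 ± 1.47 TPM (SD, n = 5). In counts the log2 fold change was -0.66 ± 0.26 (SE, DESeq2 adjusted p = 0.215). Reads outside exon 5 still count toward the gene, so this checks the labels only in part. Of 10 genes listed as markers of the 8-cell embryo, 9 had enough counts to test, and *Zscan4c* did not. The summed level of the 10 was 6968 to 7852 TPM in controls and 6631 to 7676 TPM in mutants. Most of it was *Dppa3*, at 5132 ± 653 and 4973 ± 395 TPM, and *Obox6*, at 1682 ± 273 and 1315 ± 373 TPM (SD, n = 6 and 5). The sums therefore say little about the other markers. Of the 10, *Klf5* was called higher and *Klf17* lower in mutants by DESeq2, and edgeR called *Klf5* (adjusted p = 0.00853) but not *Klf17* (adjusted p = 0.207). Of the 9, 7 had an unadjusted p under 0.05, in both directions, with *Pou5f1* at a log2 fold change of 0.90 and *Nanog* at -1.05, neither of them called. Of 10 cumulus and granulosa genes, *Foxl2*, *Has2* and *Ptx3* were at 0 in every embryo, and the summed level reached 1.48 TPM in controls and 13.4 TPM in mutants. *Inha* and *Inhba* had 7.83 and 3.08 TPM in mutant replicate 2 and none in the other embryos. The 7 oviduct and blood genes summed to 0.94 to 35.4 TPM in controls and 0.68 to 34.4 TPM in mutants. *Ovgp1* reached 30.1 TPM in batch 2 and at most 0.81 TPM in batch 1, and was called higher in batch 2.

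The members were among the more abundant transcripts of these embryos. TPM is a share of each library's transcripts corrected for their length, so levels can be compared between genes. The 88 members with a mean normalised count above 10 had mean levels of 4.99 to 1447 TPM, with a median of 143 TPM, against a median of 12.1 TPM over all 10448 genes tested. Of the 94 members, 47 (50%) ranked in the first 1000 of 21893 nuclear protein-coding genes by mean TPM, where 4.57% of the ranked genes lie by construction. Members together held 1.89% ± 0.135 (SD, n = 6) of the TPM of control embryos and 1.98% ± 0.0692 (SD, n = 5) of that of mutant embryos.

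The complexes stood at different levels. The median member of complex II lay at 41.2 TPM, of complex I at 111 TPM, of complex III at 191 TPM, of complex IV at 288 TPM and of complex V at 299.5 TPM. Only tested members entered these medians, and levels within each complex spanned a wide range.

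*Atp5b*, the catalytic beta subunit of ATP synthase, was the highest member and ranked 84 among the nuclear protein-coding genes. Its lowest, median and highest levels in controls were 1045, 1387 and 1772 TPM, and the mutants had 1415, 1310, 1335, 1802 and 1594 TPM. *Atp5g1*, which encodes the c subunit of the rotor ring, had 824, 977 and 1324 TPM in controls and 1147, 1099, 962, 1138 and 878 TPM in mutants. The groups overlapped for each gene. *Atp5f1*, the b subunit of the peripheral stalk, had 627 ± 79.0 TPM (SD, n = 6) in controls and 581 ± 37.1 TPM (SD, n = 5) in mutants.

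In complex IV, *Cox4i1*, a nuclear subunit that contacts the catalytic core, had lowest, median and highest control levels of 890, 1015 and 1206 TPM, and mutants had 1110, 915, 1041, 1010 and 893 TPM. The means of *Atp5g1* and *Cox4i1* differed by less than the SD of either over embryos. *Cox8a* had 699 ± 106 TPM in controls and 817 ± 126 TPM in mutants, and *Cox6c* had 668 ± 170 and 730 ± 236 TPM (SD, n = 6 and 5 for both). *Cox7b* was the lowest of the widely expressed complex IV subunits, at 45.8 ± 18.4 and 59.4 ± 33.4 TPM (SD, n = 6 and 5). Its single embryos ranged from 13.8 to 93.5 TPM, and both ends of that range were mutants.

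In complex III, *Uqcrb*, a small subunit near the ubiquinone site, led with 674 ± 120 TPM in controls and 793 ± 125 TPM in mutants (SD, n = 6 and 5). *Uqcr10* had 300.5 ± 66.6 and 331 ± 17.4 TPM (SD, n = 6 and 5). *Uqcrc2*, a core protein, was lowest in controls at 95.8 ± 26.8 TPM and had 106 ± 23.8 TPM in mutants, where *Uqcrfs1*, the Rieske iron-sulphur protein, was lowest at 88.4 ± 26.2 TPM (SD, n = 6 and 5). In complex I the highest members were *Ndufs5* at 296 ± 65.5 and 323 ± 59.2 TPM, *Ndufc1* at 259 ± 46.4 and 276 ± 37.1 TPM, and *Ndufs7*, a core subunit that carries an iron-sulphur cluster, at 221 ± 47.4 and 270 ± 58.0 TPM (SD, n = 6 and 5 for each). The lowest structural subunit was *Ndufb4*, at 15.8 ± 4.85 and 14.5 ± 3.79 TPM (SD, n = 6 and 5). The estimate for *Ndufb4* is uncertain because RSEM divided some of its reads with similar sequences, and the posterior SD of its count reached 16.4% of the count in 1 library. The pseudogene *Ndufb4c*, not a member, had 35.9 ± 11.8 and 47.5 ± 13.9 TPM (SD, n = 6 and 5). Whether reads of *Ndufb4* were assigned to *Ndufb4c* was not tested, so the place of *Ndufb4* as the lowest is uncertain too. The complex I assembly factors lay below most subunits, at mean levels of 9.49 to 51.1 TPM. Complex II, which is wholly nuclear-encoded and shared with the citric acid cycle, ran from *Sdhc* at 26.5 ± 8.66 and 23.1 ± 5.62 TPM to *Sdhb* at 56.0 ± 22.1 and 63.2 ± 12.7 TPM (SD, n = 6 and 5 for both).

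**Figure D1:**
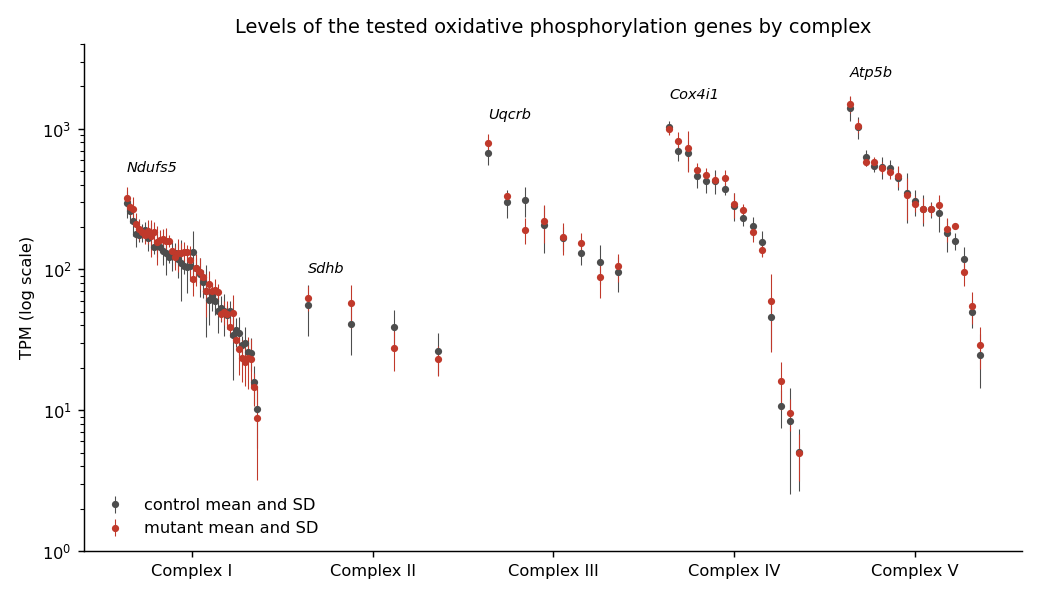
Mean TPM with SD of each of the 88 tested members, on a log scale, in controls (grey, 6 embryos) and mutants (red, 5 embryos), ordered by level within each complex. The leading member of each complex is named, and the means of the groups lie close together beside a range from 4.99 to 1447 TPM among members.

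The alternative isoform genes of complex IV were undetected or far below the main isoforms. *Cox8b*, the heart and skeletal muscle form of subunit 8, had no count in any of the 11 embryos. *Cox6a2*, *Cox7b2*, *Cox8c* and *Ndufa4l2* had counts in 1 embryo each, with at most 8 counts. *Cox4i2*, the lung form of subunit 4, was counted in every embryo and reached 8.68 TPM, while *Cox4i1* was never below 890 TPM. *Cox6b2*, the testis form of subunit 6b, ranged from 1.98 to 18.8 TPM, and *Cox7a1*, the muscle form of subunit 7a, from 5.71 to 23.3 TPM. Both were counted in all 11 embryos.

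The first isoform therefore held most of each pair's TPM in every embryo. The lowest share of *Cox4i1* within its pair was 99.2%, that of *Cox6a1* 99.8%, that of *Cox6b1* 95.8%, that of *Cox7a2* 94.5%, that of *Cox7b* 98.0%, that of *Cox8a* 99.9% and that of *Ndufa4* 99.3%. The c subunit of ATP synthase, whose 3 genes encode one mature protein with different import sequences, drew mainly on *Atp5g1*. Of the c subunit TPM, *Atp5g3* held 10.1% ± 2.96 (SD, n = 6) in control embryos and 8.11% ± 1.98 (SD, n = 5) in mutant embryos, and *Atp5g2* lay between 39.7 and 70.7 TPM. *Atp5g2* shares reads with similar sequences, with a posterior SD of up to 24.2% of its count.

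No isoform share passed the test between the groups. The smallest p belonged to *Cox7a2*, whose share of its pair was 97.4% ± 1.03 (SD, n = 6) for controls and 96.4% ± 1.5 (SD, n = 5) for mutants, a within-batch difference of -1.32 percentage points (exact permutation test within batches, two-sided, p = 0.09, adjusted over 8 sets p = 0.70). The share of *Atp5g3* differed by -2.01 percentage points (same exact test, p = 0.175, adjusted p = 0.70), and by -1.20 without mutant replicate 4 and -1.39 without mutant replicate 2. With 200 arrangements of the embryos within batches, the smallest p this test can give is 0.005. For *Cox6a1*, *Cox7b*, *Cox8a* and *Ndufa4* the share departed from 100% in 1 embryo only. Their p could not come near that value, so the test decides nothing for these sets.

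**Figure D2:**
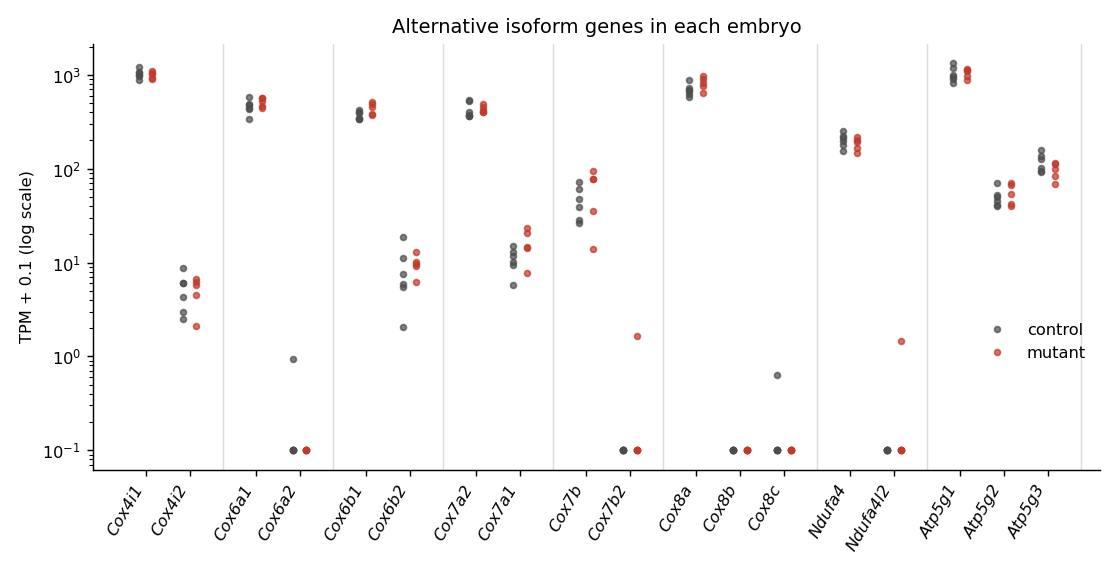
TPM of each alternative isoform gene in every embryo, plotted as TPM + 0.1 on a log scale so that zeros can be drawn, with controls in grey and mutants in red. The first gene of each complex IV family lies well above its alternatives, and *Cox8b* sits at the bottom in all 11 embryos.

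Loss of PRDM10 was compared next, in a DESeq2 fit over all genes with batch as a term. Of the 88 members tested, *Uqcrh* was called lower in mutants and 0 members were called higher (adjusted p under 0.05). Over all genes, 0.881% of those tested were called lower and 0.565% higher. The edgeR quasi-likelihood test also called *Uqcrh* alone among members, with 0.22% of its tested genes called lower. At an unadjusted p under 0.05, 2 members were lower and 6 higher, which is 9.09% of members against 11.9% of all genes tested.

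*Uqcrh* encodes the hinge protein of complex III, a small acidic subunit beside cytochrome c1. The gene (ENSMUSG00000063882.12) lies at chr4:116066965-116075071 on the minus strand (GRCm38) and is on the study's list of genes bound by PRDM10 in mouse embryonic stem cells. *Uqcrq*, another small complex III subunit, and *Atp5h*, the d subunit of the ATP synthase peripheral stalk, are the other 2 bound members. *Uqcrq* (ENSMUSG00000044894.14) lies at chr11:53427922-53430831 and *Atp5h* (ENSMUSG00000034566.10) at chr11:115415689-115419962, both on the minus strand. Each bound region also lies beside a neighbouring gene, *Lrrc41* for *Uqcrh*, *Gdf9* for *Uqcrq* and *Kctd2* for *Atp5h*.

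The promoters of *Uqcrh* and *Atp5h* are shown as those of a called and an uncalled bound member. The promoter of *Uqcrq*, the other bound member, was not analysed here. Each sequence is the RefSeq window on GRCm38.p6 from 250 bases before to 50 bases after the transcription start, read 5′ to 3′ on the gene's own (minus) strand, at chr4:116075021-116075320 for *Uqcrh* and chr11:115419870-115420169 for *Atp5h*. Capitals mark the core motif of ETS factors, CCGGAAG, which both hold once and on the reverse strand (CTTCCGG).
Uqcrh promoter: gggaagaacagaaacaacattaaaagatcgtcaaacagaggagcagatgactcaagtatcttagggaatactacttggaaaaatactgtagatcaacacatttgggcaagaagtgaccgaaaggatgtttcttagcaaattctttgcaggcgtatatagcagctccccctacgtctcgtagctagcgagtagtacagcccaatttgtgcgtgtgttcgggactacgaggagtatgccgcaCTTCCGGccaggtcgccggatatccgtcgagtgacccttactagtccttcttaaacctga
Atp5h promoter: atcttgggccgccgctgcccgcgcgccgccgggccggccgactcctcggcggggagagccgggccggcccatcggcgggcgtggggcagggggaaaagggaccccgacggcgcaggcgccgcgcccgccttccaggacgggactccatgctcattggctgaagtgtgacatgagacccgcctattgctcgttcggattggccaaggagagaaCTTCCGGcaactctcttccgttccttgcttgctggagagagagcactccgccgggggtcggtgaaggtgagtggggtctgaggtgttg

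The motif began 10 bases before the start in *Uqcrh* and 38 bases before it in *Atp5h*. The windows differed in base composition, with 46.7% G and C in *Uqcrh* and 69% in *Atp5h*, against a median of 58.3% over the member windows. The study's gel-shift probes for PRDM10 differed at 8 bases, shown here in capitals.
WT probe: ctggcacagTGGTcgcGCCCggcccgcc
MUT probe: ctggcacagCAACcgcATTTggcccgcc

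The changed bases give the pattern TGGTNNNGCCC, read here on both strands. It was found in the promoters of 13.0% of 438 bound genes, 1.69% of all 27025 genes with a promoter sequence and 1 of 76 members (*Cox7a1*), and in neither window printed above. Among the 76 members, the ETS core was found in 23.7% against 9.93% of all genes, the NRF1 core TGCGCATGC in 7.89% against 1.72%, the YY1 core AAGATGGCG in 10.5% against 1.64%, and the GC box GGGCGG in 46.1% against 38.2%. These are matches of letters in a fixed window and were not tested as sites. Member promoters had a higher median content of G and C than all promoters (58.3% and 52.7%), and the shares were not adjusted for it.

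In batch 1, *Uqcrh* had 297, 250 and 208 TPM in the 3 controls and 144 and 161 TPM in the 2 mutants. In batch 2 it had 383, 332 and 403 TPM in the controls and 242, 196 and 212 TPM in the mutants. Every mutant lay below every control of its own batch, while the groups overlapped across batches because batch 2 was higher in both.

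In normalised read counts, controls had 665 ± 207 (SD, n = 6) and mutants 410 ± 110 (SD, n = 5). The log2 fold change was -0.76 ± 0.15 (SE, DESeq2 adjusted p = 9.69e-05, edgeR adjusted p = 0.0461), so that mutants held 0.591 of the control level. Each library is a whole embryo, so a smaller share of cells that express *Uqcrh* and less *Uqcrh* RNA per cell cannot be told apart. The within-batch log2 ratios of the means were -0.71 in batch 1 and -0.80 in batch 2. The call was lost when a batch was fitted alone or the batch term was dropped (adjusted p from 0.2 to 0.427), and kept when any single embryo was left out (DESeq2 adjusted p from 0.000125 to 0.00427).

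Of the TPM summed over the 8 complex III members, *Uqcrh* made up 15.5% ± 3.10 (SD, n = 6) in control embryos and 9.26% ± 1.58 (SD, n = 5) in mutant embryos. The other 7 complex III members summed to 1689.6 ± 134 TPM (SD, n = 6) for controls and 1863 ± 73.6 TPM (SD, n = 5) for mutants. Neither sum includes the subunits *Cyc1* and *mt-Cytb*, whose symbols do not match the rule. In controls and mutants *Cyc1* had 150 ± 38.7 and 146 ± 38.1 TPM, and *mt-Cytb* 14364 ± 3221 and 10852.5 ± 2467 TPM (SD, n = 6 and 5). The reads of *Uqcrh* were assigned with little ambiguity, with a posterior SD of at most 0.131% of its count, and its effective length was 450.5 ± 6.14 bases in controls and 447 ± 12.5 bases in mutants (exact permutation test within batches, p = 0.645). Its processed pseudogenes *Uqcrh-ps1* and *Uqcrh-ps2* had at most 2.76 counts in any embryo.

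The other bound members were not called. *Uqcrq* had lowest, median and highest control levels of 104, 130.3 and 171 TPM, and mutants had 138, 200.4, 147, 140 and 146 TPM. Its log2 fold change was 0.19 ± 0.20 (SE, DESeq2 adjusted p = 0.806). This value fell to 0.10 when control replicate 2 was dropped and to 0.09 when mutant replicate 2 was. It rose to 0.31 without control replicate 3, and batch 1 alone gave 0.12 and batch 2 alone 0.25. *Atp5h* had 405, 532 and 684 TPM in controls and 581, 558, 520.1, 529 and 447 TPM in mutants. Its log2 fold change was -0.03 ± 0.17 (SE, DESeq2 adjusted p = 0.977), and the sign changed under several alternatives. The groups overlapped for both genes. Of the neighbours, *Lrrc41* had a log2 fold change in counts of -0.20 ± 0.27 (SE, DESeq2 adjusted p = 0.872). In TPM, which also depends on the effective length that RSEM estimates in each library, *Lrrc41* had 43.5 ± 17.5 (SD, n = 6) for controls and 22.9 ± 7.85 (SD, n = 5) for mutants. *Gdf9* had a log2 fold change of -0.03 ± 0.46 (SE, DESeq2 adjusted p = 0.993), and *Kctd2* had too few counts to test.

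**Figure D3:**
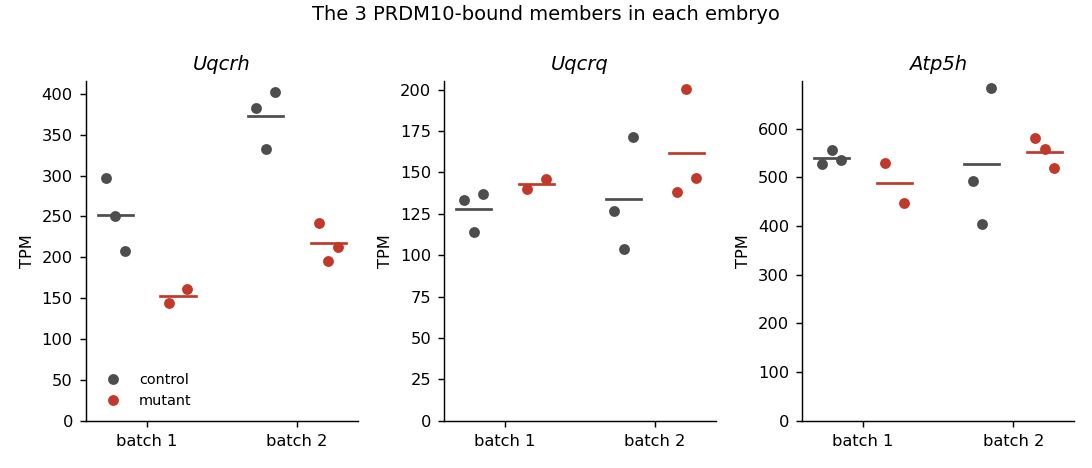
TPM of *Uqcrh*, *Uqcrq* and *Atp5h* in each embryo, by batch, with controls in grey, mutants in red and a line at each mean. For *Uqcrh* the mutants lie below the controls in both batches, and for *Uqcrq* and *Atp5h* the groups overlap.

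The remaining members had log2 fold changes near 0. The median log2 fold change of the 88 tested members was 0.08, beside -0.001 over all genes tested, and 33 (37.5%) were below 0, beside 50.2% of all genes. The members' median moved to 0.03 without control replicate 1 or control replicate 2, and to 0.15 without control replicate 3. In single embryos the median member, as a log2 deviation from the controls of the same batch, ran from -0.14 to 0.22 in the 6 controls, of which 4 lay below 0, and from 0.05 to 0.18 in the 5 mutants. The groups overlapped, and this difference was not tested. Apart from *Uqcrh*, 82 of 87 log2 fold changes lay within 0.5 of 0. For 79 of these 87 the 95% interval stayed within 1 of 0 on the log2 scale, and for the other 8 it did not, so changes beyond 2-fold could not be set aside there. Among these 8 were *Ndufa1*, *Sdhd*, *Ndufaf3*, *Ndufaf5*, *Cox4i2*, *Cox6b2* and *Cox7a1*, named after their values were seen.

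Among complex I members, all 7 core subunits had log2 fold changes above 0, with a median of 0.29, and all 8 assembly factors (symbols beginning with Ndufaf) lay below 0, from -0.47 to -0.14, with a median of -0.26. None of the 15 was called. The smallest DESeq2 adjusted p among these assembly factors was 0.544. Of the complex I assembly factors with other symbols, *Tmem126b* lay at -0.998, *Foxred1* at -0.61, *Ecsit* at -0.22 and *Acad9* at -0.09, with *Timmdc1* at 0.04 and *Nubpl* at 0.14. The 39 tested assembly factors of all complexes outside the symbol rule had a median of -0.01, with 21 below 0. The accessory subunits had a median of 0.10, with 7 of 29 below 0. This split was noticed after the values were seen, all genes were measured in the same embryos, and no test was made of it.

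*Sdha*, the flavoprotein of complex II that oxidises succinate, had 55.6, 60.4 and 46.4 TPM in batch 1 controls and 78.3 and 78.9 TPM in mutants. In batch 2 it had 21.0, 32.7 and 27.8 TPM in controls and 40.3, 41.9 and 48.5 TPM in mutants. Its log2 fold change was 0.50 ± 0.21 (SE, DESeq2 adjusted p = 0.283), and it passed with an offset for effective length (0.63, adjusted p = 0.0126). *Cox7a1* had 0.54 ± 0.45 (SE) and an adjusted p of 0.708, with 0.91 in batch 1 alone and 0.23 in batch 2 alone. The lowest values after *Uqcrh* were *Ndufa1*, an X-linked accessory subunit, at -0.64 ± 0.31 (SE) with a DESeq2 adjusted p of 0.396, and *Sdhd*, a membrane anchor of complex II, at -0.51 ± 0.29 (SE) with an adjusted p of 0.514. Without control replicate 3 these were -0.35 for *Ndufa1* and -0.29 for *Sdhd*, and *Ndufa1* had -0.25 in batch 1 alone and -0.97 in batch 2 alone.

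**Figure D4:**
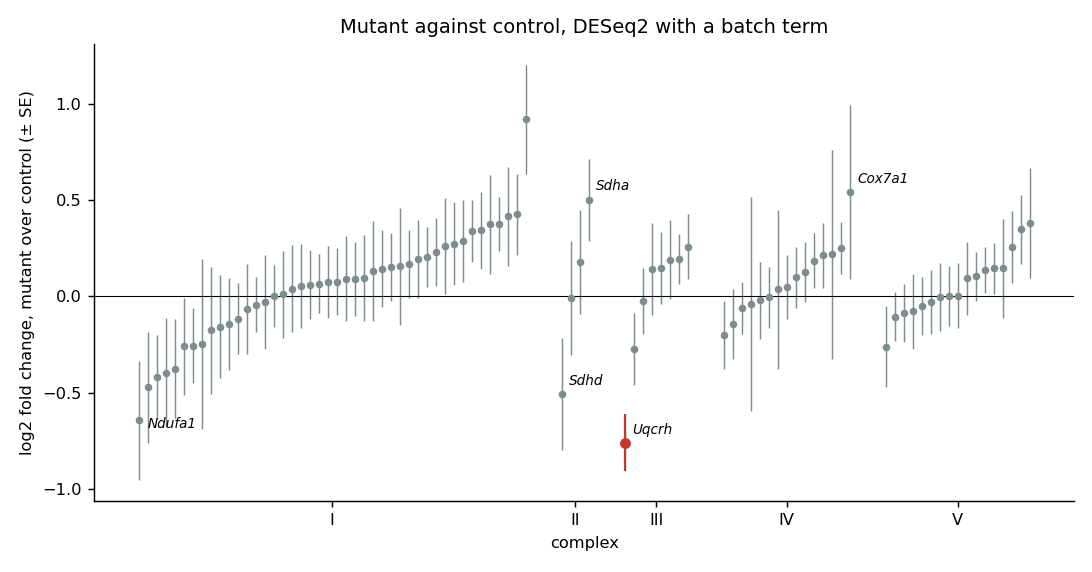
Log2 fold change, mutant over control, with SE for the 88 tested members by complex, from the DESeq2 fit with a batch term. *Uqcrh* (red) at -0.76 is the called member, and most other members lie within 0.5 of 0.

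No tested member had every mutant below or above every control across both batches, beside 0.632% and 0.287% of all genes tested. Within each batch taken alone, *Uqcrh* and *Ndufs4*, an accessory subunit of the electron input module of complex I, had all mutants below all controls in normalised counts, which is 2.27% of members beside 1.41% of genes. In the other direction, 6 members had all mutants above all controls in both batches, 6.82% of members beside 1.33% of genes, among them *Sdha*, *Ndufa9*, *Ndufa7*, *Cox6b1* and *Atp5k*. *Ndufa9* had a log2 fold change of 0.38 ± 0.14 (SE, DESeq2 adjusted p = 0.188), and *Ndufs4* of -0.42 ± 0.22 (SE), with an adjusted p of 0.45. *Ndufa9*, *Ndufa7*, *Atp5k* and *Ndufs4* were named after their values were seen.

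The effect of genotype was not found to differ between batches for any member. In the interaction fit 0 members were called by DESeq2 or edgeR, beside 0.0382% of all genes tested by DESeq2. At an unadjusted p under 0.05 there was 1 member, *Ndufs1*, a core subunit named after its value was seen, which is 1.14% of members beside 4.3% of all genes. For *Uqcrh* the interaction was -0.09 ± 0.32 (SE) on the log2 scale.

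Genes that work with the members were read in the same fit. The sum of the 13 mitochondrially encoded subunits was 101462 ± 19173 TPM (SD, n = 6) for controls and 80611 ± 12693 TPM (SD, n = 5) for mutants. All 13 were tested and 0 were called, 10 had log2 fold changes below 0, the median was -0.27, and 4 had an unadjusted p under 0.05, beside 11.9% of all genes. Of 42 other assembly factors, 39 were tested, and *Cmc2*, a complex IV assembly factor on the bound list, was called lower (-1.09 ± 0.29, DESeq2 adjusted p = 0.0209). Of 19 genes of electron carriers and coenzyme Q, *Coq10b*, which binds coenzyme Q, was called lower (-0.95 ± 0.28, DESeq2 adjusted p = 0.0439). Of 13 citric acid cycle genes, *Dlst*, a component of the 2-oxoglutarate dehydrogenase complex and on the bound list, was called lower (-1.74 ± 0.32, DESeq2 adjusted p = 3.58e-05). With edgeR *Dlst* was called (adjusted p = 0.0412), and *Cmc2* (0.228) and *Coq10b* (0.269) were not. None of the 11 tested regulators of mitochondrial biogenesis was called. No gene of these lists was called higher. Over all genes tested, DESeq2 called 0.881% lower and 0.565% higher, and edgeR called 0.22% lower.

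Batch moved the members more than genotype did. In batch 2 against batch 1, 24 of the 88 members (27.3%) were called higher and 7 (7.95%) lower, while over all genes 13.8% were called higher and 14% lower. The median log2 difference was 0.32 for members and 0.002 for all genes. With edgeR, 20 members were called higher and 6 lower, beside 10.2% and 9.49% of all genes. With limma on log2(TPM + 1), 9 members were called higher and 10 lower, beside 5.65% and 18.2% of all genes. In controls alone, 3 members were called higher and 6 lower, beside 6.76% and 7.77% of all genes, so the larger count of higher members was not seen there.

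*Cox6c*, *Ndufaf2* and *Ndufa2* had the largest called differences toward batch 2. *Cox6c* ranged from 476 to 643 TPM over the 5 embryos of batch 1 and from 668 to 1070 TPM over the 6 of batch 2. Its log2 difference was 0.85 ± 0.16 (SE). *Ndufaf2*, a complex I assembly factor, had 0.81 ± 0.26 (SE), and *Ndufa2* had 0.80 ± 0.17 (SE). The batches did not overlap in TPM for any of these 3 genes.

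The 7 members called lower included *Sdha*, *Ndufv1*, *Atp5a1*, *Uqcrc1*, *Uqcrfs1* and *Atp5b*, most of them catalytic or core subunits. *Sdha* differed by -1.04 ± 0.21 (SE) and *Ndufv1*, the NADH-binding subunit, by -0.82 ± 0.26 (SE). *Atp5a1*, the alpha subunit of ATP synthase, ranged from 446 to 505 TPM in batch 1 and from 204 to 290 TPM in batch 2, with no overlap.

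Transcript length moved with this difference. Members called higher in batch 2 had a median effective length of 498 bases and those called lower of 1289 bases, beside 593 bases over all tested members. Of the 66 members under 1000 bases, 22 were called higher and 1 lower. Of the 22 longer members, 2 were called higher (*Atp5f1* and *Ndufa11*) and 6 lower. Over all tested genes, 21.0% of those under 1000 bases were called higher and 3.37% lower, and of the longer ones 12.4% and 16.1%. The rank correlation of length with the batch difference was -0.40 across the 88 members and 0.06 across all genes tested, as a description of genes measured in the same libraries. The length bound was chosen after the values were seen. The number of PCR cycles and anything else that differed between batches cannot be told apart here.

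**Figure D5:**
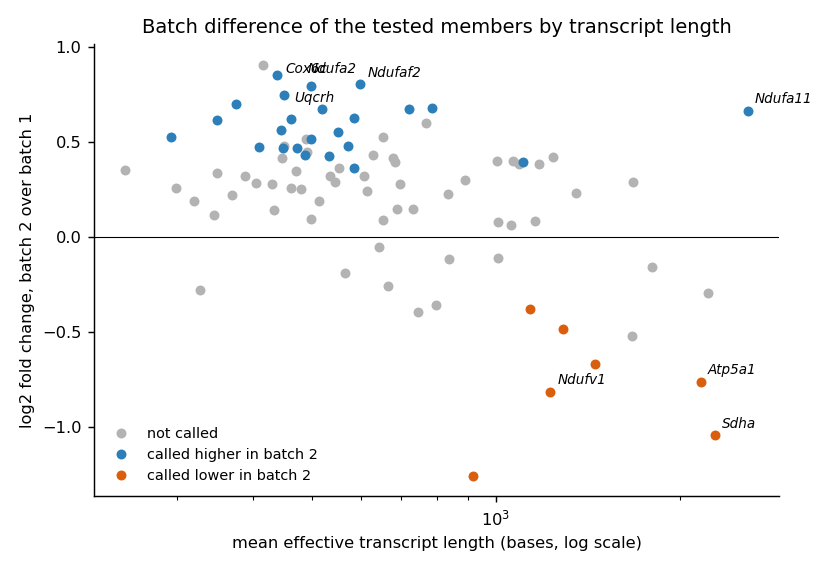
Log2 fold change of batch 2 over batch 1 for each of the 88 tested members against mean effective transcript length in bases on a log scale. Members called higher (blue, 24) are mostly short, and those called lower (orange, 7) have a median length of 1289 bases.

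Complex V had the highest sum of TPM over its members in every embryo, and complexes III and II had the lowest. Complexes I and IV lay between and changed places, with complex I above complex IV in control replicate 4 and mutant replicate 5. Summed over members, complex V had 7096 ± 456 TPM in controls and 7213 ± 272 TPM in mutants, complex IV had 5026 ± 597 and 5369 ± 503 TPM, and complex I had 4636 ± 539 and 5025 ± 252 TPM. Complex III had 2002 ± 176 and 2054 ± 103 TPM, and complex II had 162 ± 35.7 and 172 ± 25.2 TPM (SD, n = 6 and 5 throughout). For each complex the difference between the means was smaller than the SD of the controls. TPM is a share of each library, so fewer transcripts of all genes per embryo would not show in these sums.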

How the data were processed

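RNA from 11 single embryos was sequenced by the authors after Smart-seq2 amplification, mapped to GRCm38 with STAR (version 2.6.0c) and quantified with RSEM. The deposited tables hold expected counts, which need not be whole, TPM and effective lengths. The authors' own comparison table was not used. Symbols were read from GENCODE vM21 on that build. Expected counts were rounded and fitted across all genes with DESeq2 version 1.42.0, while the study used version 1.22.2 of the same tool. Batch and group were terms, fold changes were unshrunken and independent filtering was at 0.05, settings chosen here. As in the study, genes were called at an adjusted p under 0.05 among those with a baseMean (mean normalised count) over 10. Alternatives were edgeR (version 4.0.16), limma (version 3.58.1) on log2(TPM + 1), and other filters, scalings and sample sets. Fits and permutations were tested on simulated data. Replicate numbers follow order only. Reads carry no molecular identifiers, and the protocol keeps no strand. Named genes were *Prdm10*, called, bound, highest, lowest, isoform and extreme members, and called genes of the other lists. Some items are not reported here. Members and lists were chosen with earlier results of these data known.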

Additional observations from a re-analysis of the deposited data

Results flagged for a closer look

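Among 70 groups of values tested (35 named members in controls and in mutants), 1 held a sample far from the others. *Uqcrq* had 200.36 TPM in mutant replicate 2, while the other 4 mutants had 138 to 147 TPM. Chance flags about 1 in 20 such groups. Without mutant replicate 2, *Uqcrq* was not called.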

How the results depend on the processing

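The log2 fold change of *Uqcrh* kept its sign under all 21 alternatives run. Members called lower went from 1 to 0 without a batch term, in batch 1 alone and in batch 2 alone, where *Uqcrh* had log2 fold changes of -0.70, -0.70 and -0.80 and was not called. Members called higher went from 0 to 1 with an effective length offset (*Sdha*), and leaving out single embryos gave 0 to 1 (1 without control replicate 2). *Atp5h* reversed to 0.017 without a batch term, to 0.086 in batch 2 alone, and ranged from -0.13 to 0.086 with single embryos left out. Members called higher in batch 2 fell from 24 to 9 with limma on TPM and to 3 in controls alone. Members held 2.15% of the TPM of nuclear genes and 1.04% of expected counts in controls, against 1.89% of all TPM. With 1 mismatch allowed, the PRDM10 pattern was in 34.2% of member promoters and 27.4% of those of all genes. The *Cox6b1* share difference became -0.065 percentage points from expected counts. With single embryos left out, that of *Cox6b1* ranged from -0.41 to 0.50 and that of *Cox4i1* from -0.073 to 0.055, and no isoform share passed. The cause was not tested for any of these. Settings in which a pair had a share of 100% in all remaining embryos gave no value. No paired analysis was possible because replicate numbers were given in order and do not pair embryos. At these depths members with a mean count under 10 could not be compared.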
